A study of Mus musculus with 6 samples.

Results

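The T cell receptor variable segments are the gene pieces that give each T cell clone its own receptor, and their use was measured here in Th9 cultures of CD4+ T cells with and without Cul5. The members are all entries of the deposited gene-level table whose names begin with Trav or Trbv, 41 of 11242 entries, with 22 Trav segments in 10 numbered subgroups and 19 Trbv segments in 16 subgroups. The GRCm38 annotation of the same transcripts lists 163 such genes, 128 of them Trav and 35 Trbv. The libraries came from C57BL/6 mice of 8 to 10 weeks. The WT group comprised 3 samples from control mice, which the study's methods describe as Cul5 fl/fl littermates without CD4-Cre. The Cul5 cKO group comprised 3 samples from Cul5 fl/fl CD4-Cre mice. In these the CD4 promoter drives Cre and the gene is deleted during thymic development, also in cells that become CD8+ T cells. The study describes these mice as lacking Cul5 in all T cells. Deletion in γδ T cells was not tested here. In both groups naïve CD4+ T cells were isolated by magnetic sorting and cultured for 48 h on anti-CD3 (2 µg/ml, plate-bound) with anti-CD28 (1 µg/ml). The medium held IL-4 at 20 ng/ml, anti-IFN-γ at 10 µg/ml and TGF-β at 2.5 ng/ml, and RNA was taken at the end. It is not stated whether the 3 libraries of a group came from separate mice, so p-values measure the spread between these libraries, which may be technical.

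Each αβ T cell assembles its receptor genes in the thymus. A β chain is built from 1 Trbv, 1 Trbd and 1 Trbj segment and an α chain from 1 Trav and 1 Traj segment, each then spliced to a constant region (Trbc1 or Trbc2, or Trac). The variable segment encodes the part of the chain that contacts the MHC molecule and starts the hypervariable loop that reads the peptide. Because mature T cells do not rearrange these genes again, the segment usage of a polyclonal population reflects rearrangement and selection in the thymus together with any later expansion or loss of clones. The mouse Trav locus contains duplicated blocks, which the gene names mark with d and n, so that several near-identical copies of a segment exist, whereas most Trbv subgroups have 1 gene. In bulk RNA, the reads on a segment count transcripts, and fewer cells with that segment and less receptor RNA per cell cannot be told apart.

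The sequences below show how differently the reads of both chains can be placed. They are the last 90 bases of the second exon of each gene on the + strand, up to the end of the coding segment, where the next segment is joined in the rearranged gene (Traj in the α chain, Trbd in the β chain), taken from the GENCODE transcripts of GRCm38. The 5 Trav14 members are shown because Trav14 was the most used Trav subgroup, and the 3 Trbv13 members because Trbv13 was the most used Trbv subgroup. Capitals mark the positions at which the genes of a set differ, 7 in the Trav14 set and 22 in the Trbv13 set.
Trav14d-1 (chr14:52856077-52856166): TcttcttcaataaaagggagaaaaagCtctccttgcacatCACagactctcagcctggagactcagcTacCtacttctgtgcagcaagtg
Trav14d-3-dv8 (chr14:53078956-53079045): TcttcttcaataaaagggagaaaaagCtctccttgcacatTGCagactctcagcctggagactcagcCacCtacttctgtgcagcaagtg
Trav14-1 (chr14:53554469-53554558): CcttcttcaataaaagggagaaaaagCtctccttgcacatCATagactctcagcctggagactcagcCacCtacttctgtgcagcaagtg
Trav14-2 (chr14:53641136-53641225): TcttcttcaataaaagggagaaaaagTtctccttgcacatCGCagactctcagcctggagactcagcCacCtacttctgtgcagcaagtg
Trav14-3 (chr14:53763605-53763694): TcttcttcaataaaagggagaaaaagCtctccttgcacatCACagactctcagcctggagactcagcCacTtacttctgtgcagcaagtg
Trbv13-1 (chr6:41116379-41116468): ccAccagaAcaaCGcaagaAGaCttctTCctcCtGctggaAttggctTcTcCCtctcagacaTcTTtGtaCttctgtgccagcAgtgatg
Trbv13-2 (chr6:41121743-41121832): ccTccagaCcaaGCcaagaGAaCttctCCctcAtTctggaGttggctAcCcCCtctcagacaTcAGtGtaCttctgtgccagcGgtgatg
Trbv13-3 (chr6:41130496-41130585): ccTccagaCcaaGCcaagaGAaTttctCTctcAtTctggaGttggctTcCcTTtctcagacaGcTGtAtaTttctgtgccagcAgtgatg
The capitals are dense in Trbv13 and sparse in Trav14. Of the 60 stretches of 31 bases in each window, between 23 and 41 in a Trav14 gene occurred in none of the other 4 Trav14 genes shown, against all 60 in each Trbv13 gene. Over the last 309 bases of the exon, set side by side without gaps, the 10 pairs of Trav14 genes were 90.6% to 97.4% identical, and over the last 294 bases the 3 pairs of Trbv13 genes were 86.1% to 91.8% identical.

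The 22 Trav members lie within the annotated Trav genes on chromosome 14 (52427928 to 53977678, GRCm38), all on the + strand. The 19 Trbv members lie on chromosome 6 within 40891229 to 41558452, 18 on the + strand and Trbv31 on the - strand. The program that the authors used assigns a read through 31-base words, so a word that occurs in a single gene places a read with no ambiguity. Among the Trbv members the median share of such words was 100%. It was low in Trbv4 (26.5%) and Trbv5 (21.3%), which share words with the annotated gene 5830405F06Rik. That gene was not among the genes with matched transcripts, and the estimated counts of Trbv4 and Trbv5 were whole numbers in every sample. Their low share therefore does not show that their reads were divided. Among the Trav members the median was 29.8% and the highest 67.5%, in Trav14-1, so that every Trav value below is partly an apportioning among copies. Trav14d-1 had no word of its own and the same transcript sequence as Trav14n-1, which is not a member, and Trav6d-7 and Trav6n-7 were identical to each other and carried identical values. The 41 members held between 40.7% and 44.5% of the counts on all annotated Trav genes and between 98.9% and 99.5% of those on Trbv genes.

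**Figure D1:**
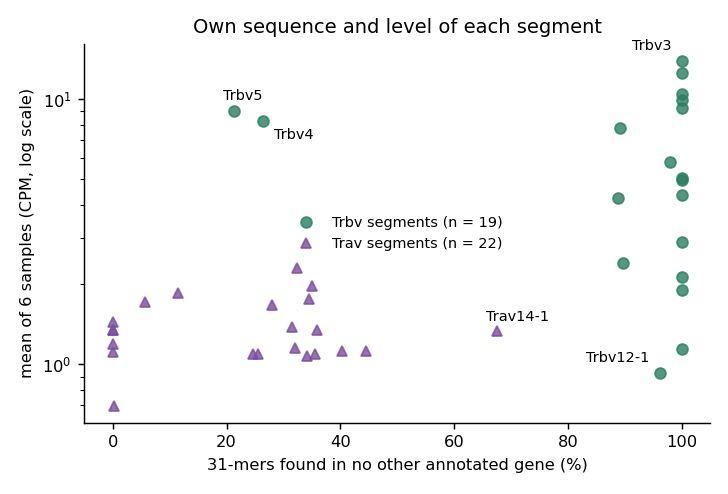
Mean level of each member over the 6 samples (CPM, log axis) against the share of its 31-base words found in no other annotated gene (percent), circles for the 19 Trbv and triangles for the 22 Trav segments. The Trbv circles sit near 100% except Trbv5 and Trbv4 at 21.3% and 26.5%, and the Trav triangles lie between 0 and 67.5%. Annotated genes include some without matched transcripts, such as 5830405F06Rik, which shares words with Trbv4 and Trbv5.

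Total estimated counts were 23111689 to 23454552 in 5 libraries and 3944803 in WT replicate 3. In the 5 deep libraries a Trbv member had 12 to 383 counts (median 112) and a Trav member 0 to 58.4 (median 27.95), and in WT replicate 3 the ranges were 7 to 69 and 0 to 12.8. All 19 Trbv members were above 3 counts in every library, and 4 of the 22 Trav members were at or under 3 counts in at least 1. The mean fragment length, read from transcripts over 3000 bases, was 247 bases in WT replicate 3 and 203 to 212 in the others. The member transcripts have a median length of 387 bases. Their median effective length was 247 bases in WT replicate 3 against 180 to 188 in the others. A longer mean fragment would by itself shorten the effective length, and the reason for the difference was not tested. On the scale of CPM (counts scaled to library size, TMM-normalized), which is not corrected for effective length, the Trbv total was highest in WT replicate 3, whereas on the scale of TPM (transcript abundance per library), which is, it was lowest among the WT samples. Chain totals, evenness, distances and the segments with the largest differences are therefore also given without this library. Cul5 itself measured 64.4, 69.3 and 65.03 CPM in the WT samples and 10.6, 14.2 and 13.1 CPM in the Cul5 cKO samples (log2 fold change -2.39, SE 0.11, adjusted p = 0.000992, edgeR), in accord with the labels. The 7 CD4 T cell markers (Cd4, Cd5, Cd28, Cd3e, Trac, Trbc1 and Trbc2) summed to 1608, 1786 and 1801 CPM in WT and 1367, 1546 and 1486 CPM in Cul5 cKO replicates 1 to 3. The B cell markers Cd79a, Cd79b, Ms4a1 and Ighm summed to 109, 79.1 and 79.6 and 42.1, 33.9 and 101 CPM, the 2 CD8 markers to 5.75, 6.54 and 6.29 and 4.299, 6.37 and 11.7 CPM, and the 4 myeloid markers to at most 8.31 CPM. Most of the B cell sum was Ighm, highest in WT replicate 1 (93.6 CPM). Cul5 cKO replicate 3 was highest for Cd79a (10.3 CPM, at most 4.47 elsewhere), Cd79b (12.8, at most 12.04) and Ms4a1 (4.16, at most 0.542). It was also highest for Cd8a (6.27 CPM, at most 1.71 elsewhere), and Cd8b1 was highest in WT replicate 2 (5.45 CPM). Lyz2 was at 2.80 CPM in Cul5 cKO replicate 2 and at most 0.260 CPM elsewhere. The 4 genes of the Th9 culture (Il9, Irf4, Gata3 and Batf) summed to 1188, 1550.3 and 1379 CPM in WT and 1757, 2173 and 2561 CPM in Cul5 cKO. The part of other cell types in the values below was not tested.

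Trbv usage was spread over all 16 subgroups, led by Trbv13, and in 15 of the 16 the shares of the genotypes overlapped. Usage is the share of a segment or subgroup in the summed TPM of the members of its chain. TPM divides counts by the effective length of the annotated segment alone, and the order of segments depends on it. In WT replicate 1 that length was 355.2 bases for Trbv19 and 137.2 for Trbv13-2. Trbv19 was below Trbv13-2 in TPM in every sample. By share of Trbv counts it was above, with 10.7, 10.8 and 9.87% in WT replicates 1 to 3 and 11.6, 10.4 and 11.8% in Cul5 cKO replicates 1 to 3. Trbv13, with 3 genes, took 19.02, 19.6 and 22.1% in WT replicates 1 to 3 and 19.97, 18.3 and 19.9% in Cul5 cKO replicates 1 to 3. It was the most used subgroup in each of the 6 samples and the genotypes overlapped (-0.865 percentage points, exact permutation p = 0.6). Its leading segment was Trbv13-2, with 9.65, 9.34 and 9.84% in WT and 8.07, 7.65 and 9.31% in Cul5 cKO, where every Cul5 cKO value lay under every WT value (-1.27 percentage points, exact permutation p = 0.1). As a share of Trbv counts it was 6.72, 6.603 and 7.99% in WT and 5.68, 5.35 and 6.605% in Cul5 cKO. On that scale the groups overlapped, with Cul5 cKO replicate 3 level with WT replicate 2. The smallest two-sided p that 3 against 3 samples allow is 0.1, so no single share can pass 0.05. Trbv13-1 and Trbv13-3, the other members of that subgroup, averaged 5.91% and 4.92% over the 6 samples, and both overlapped between genotypes.

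The next places belonged to single-gene subgroups. Trbv3 took 10.9, 9.58 and 8.76% in WT and 10.2, 9.63 and 9.55% in Cul5 cKO, a difference in means of 0.0668 percentage points, exact permutation p = 0.9. Trbv5 took 10.1, 9.72 and 6.09% and 10.04, 10.3 and 10.3%. Here and in the pairs of values that follow, WT replicates 1 to 3 come first and Cul5 cKO replicates 1 to 3 second. WT replicate 3 was low for Trbv5, and the other 5 samples lay within 9.72% to 10.3%. Trbv31, the segment that is transcribed from the opposite strand and joins by inversion, took 7.96, 8.698 and 10.4% and 7.41, 8.44 and 7.08%, with overlapping genotypes (-1.38 percentage points, exact permutation p = 0.2). Trbv1 took 7.88, 7.79 and 6.79% in WT and 9.45, 8.36 and 8.98% in Cul5 cKO. It was the one Trbv subgroup whose genotypes did not overlap, with the Cul5 cKO shares above the WT shares (1.44 percentage points, exact permutation p = 0.1). Its CPM was lower in the Cul5 cKO samples, by less than that of the other segments. Trbv4 took 7.99, 6.62 and 6.96% and 7.71, 7.92 and 8.04%. Trbv19 took 5.92, 5.97 and 6.86% and 6.48, 5.82 and 6.62%, and Trbv20 6.02, 7.05 and 4.72% and 5.73, 6.22 and 6.92%. The genotypes overlapped in all of the last 3.

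Trbv29 was the least used subgroup, with 1.496, 1.202 and 1.28% in WT and 1.01, 0.826 and 1.65% in Cul5 cKO, below Trbv26 (mean 1.98% over the 6 samples) and Trbv17 (mean 2.11%). These lowest 3 subgroups differed between genotypes by less than their spread (exact permutation p between 0.5 and 1). The other 5 subgroups, Trbv2, Trbv16, Trbv15, Trbv12 and Trbv14, averaged 2.91% to 4.65%. From the second place down, neighbours in the order were mostly within each other's spread over samples: the 6-sample ranges of Trbv3 and Trbv5 overlapped, as did those of Trbv31, Trbv1 and Trbv4. Counting error alone is sizeable at this depth. As a share of Trbv counts rather than TPM, Trbv3 measured 13.5% in WT replicate 1 (exact 95% binomial interval 12.3 to 14.9%, 383 of 2828 counts) and 10.03% in WT replicate 3 (7.81 to 12.6%, 64 of 638 counts). Intervals cover counting error only, since reads without molecular identifiers are not independent molecules.

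**Figure D2:**
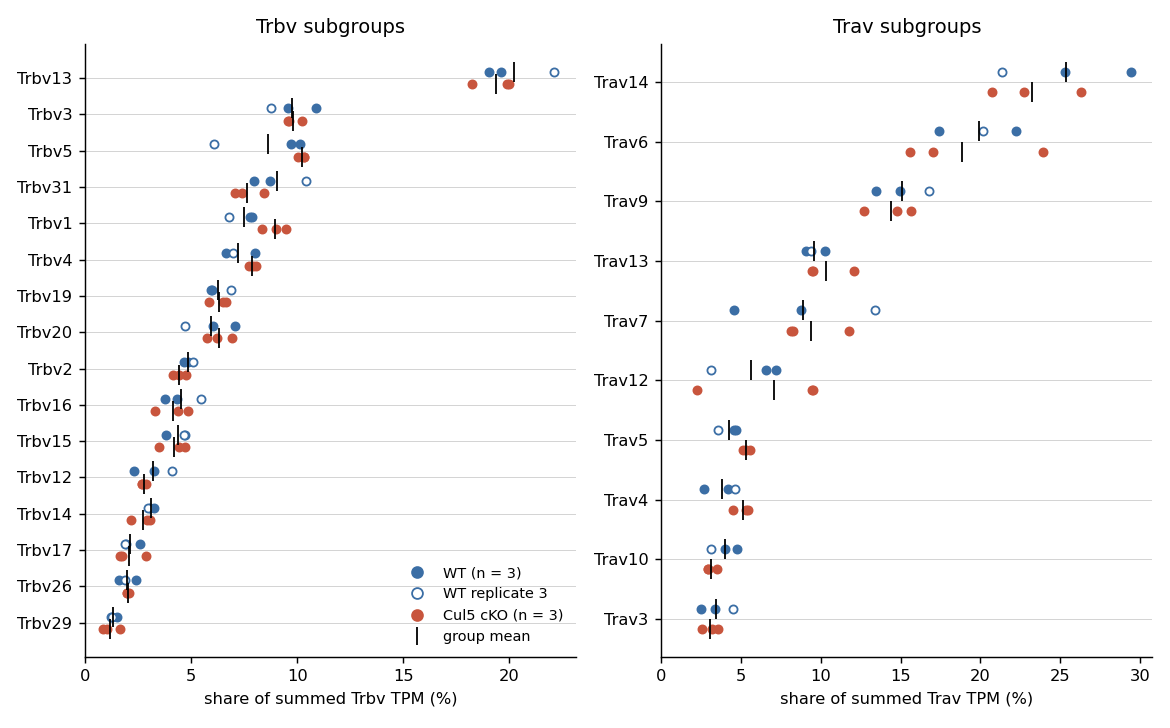
Share of each subgroup in the summed TPM of its chain (percent), 1 point per sample, WT above Cul5 cKO in each row with a tick at the group mean and WT replicate 3 open, with Trbv and Trav in separate panels ordered by the mean over the 6 samples. Trbv13 leads with 18.3% to 22.1%, Trav14 and Trav6 lead with 15.6% to 29.4%, and the points of both genotypes lie over each other in most subgroups.

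Among the members, Trav usage was led by Trav14 and Trav6, and no Trav subgroup was shown to differ between genotypes. The order depends on which genes are members. Summed over all annotated genes, Trav14 averaged 12.02 CPM over the 6 samples, Trav7 10.69 CPM and Trav6 10.22 CPM. In WT replicate 3, Trav7 was above Trav14 on that scale (20.5 against 14.9 CPM). Trav14, with 5 of its 9 annotated genes among the members, took 25.3, 29.4 and 21.4% in WT and 22.8, 26.3 and 20.7% in Cul5 cKO (-2.11 percentage points, exact permutation p = 0.6). Its leading segment Trav14-2 averaged 6.09% over the 6 samples. Trav6, with 3 members, took 22.2, 17.4 and 20.2% and 23.9, 15.6 and 17.1%, and it held the most used Trav segment, Trav6-7-dv9, at 9.92, 8.58 and 7.57% in WT and 9.02, 7.68 and 8.66% in Cul5 cKO. The suffix dv marks segments that can also be joined in the δ chain. The 6-sample ranges of Trav14 and Trav6 overlapped, and Trav6 was above Trav14 in Cul5 cKO replicate 1. Trav9 took 13.5, 14.9 and 16.8% and 12.7, 14.8 and 15.7%, and Trav13 9.08, 10.2 and 9.36% and 9.48, 9.49 and 12.1%. Both overlapped between genotypes, and their spreads did not overlap each other.

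Trav7 and Trav12 varied most from sample to sample relative to their level. Trav7 took 8.78, 4.56 and 13.4% in WT and 11.8, 8.28 and 8.16% in Cul5 cKO, and Trav12 took 6.54, 7.21 and 3.13% and 2.23, 9.44 and 9.49%. In both, single members were at or near 0 in samples in which a near-identical gene outside the member list held the counts. Trav7n-6 had 0.101 counts in WT replicate 2, where C920008G01Rik had 1.47 CPM and was at 0 CPM in the other 5 samples. Trav12n-3 was at 0 counts in WT replicate 3 and Cul5 cKO replicate 1, where Trav12d-3 had 0.835 and 0.391 CPM, and Trav12d-3 was at or next to 0 in the other 4. Trav5, with 1 of its 9 annotated genes (Trav5-4) among the members, took 4.66, 4.58 and 3.54% in WT and 5.55, 5.12 and 5.32% in Cul5 cKO. Every Cul5 cKO value was above every WT value (1.07 percentage points, exact permutation p = 0.1). Summed over all its annotated genes, Trav5 overlapped in CPM, with 2.82, 2.47 and 2.03 in WT and 2.47, 2.41 and 3.29 in Cul5 cKO. Trav4 took 2.66, 4.21 and 4.62% and 5.47, 4.53 and 5.33%, with 1 overlapping pair of values (1.27 percentage points, exact permutation p = 0.2). Trav10 took 4.76, 4.03 and 3.11% and 3.51, 2.94 and 2.96%. Trav3 was lowest of the 10 subgroups with a member, with a mean of 3.27%. In CPM over all annotated genes, Trav10 (mean 1.88) was below Trav3 (mean 2.77). The tested subgroups without a member were lower still, with Trav21 the lowest (mean 0.49 CPM). The last 3 subgroups in the order of member shares, Trav4, Trav10 and Trav3, each had 1 member and overlapped one another.

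Usage was spread over nearly all members of both chains, and over the members no difference in evenness between genotypes beyond the spread of the samples was shown. It was measured as the effective number of segments, the number of equally used segments that would have the same Shannon entropy. For Trbv the effective number was 15.9, 16.3 and 16.5 of 19 in WT and 15.9, 16.2 and 15.9 in Cul5 cKO. The means were 16.2 ± 0.304 (SD, n = 3) and 15.999 ± 0.181 (SD, n = 3), a difference of -0.226 (exact permutation p = 0.2, two-sided), and of -0.0888 without WT replicate 3. Counted by subgroup it was 12.9, 12.99 and 12.7 of 16 in WT and 12.6, 13.1 and 12.7 in Cul5 cKO, a difference of -0.0809 (exact permutation p = 0.7), or -0.158 without WT replicate 3. The values of the 6 samples lay within 12.6 to 13.1, a range in which no sample stood apart. For Trav the effective number of segments was 20.5, 20.1 and 18.5 of 22 in WT and 19.5, 21.1 and 20.9 in Cul5 cKO (19.7 ± 1.06 (SD, n = 3) against 20.5 ± 0.873 (SD, n = 3), exact permutation p = 0.5). WT replicate 3, the shallow library, was lowest, and without it the difference of 0.786 shrank to 0.186 (exact permutation p = 1). By subgroup it was 7.67, 7.62 and 7.85 of 10 in WT and 7.63, 8.09 and 8.397 in Cul5 cKO, a difference of 0.326 (exact permutation p = 0.3), or 0.392 without WT replicate 3. The Trav members are only the entries of the gene-level table. Over all 128 annotated Trav genes the effective number was 73.3 ± 6.43 (SD, n = 3) in WT and 77.8 ± 2.71 (SD, n = 3) in Cul5 cKO (exact permutation p = 0.4), and over all 23 subgroups 11.7 ± 0.175 (SD, n = 3) and 11.9 ± 0.110 (SD, n = 3), with every Cul5 cKO sample above every WT sample (exact permutation p = 0.1, the smallest possible). As a part of the genes or subgroups present, usage was less even over all annotated Trav genes than over the members. With all libraries thinned in a single random draw to the total of the shallowest, both Trav differences were negative. They were -0.71 segments and -0.33 subgroups (exact permutation p = 0.6 and 0.5). A single draw cannot tell the effect of depth from that of the draw. The share of the single most used segment was 10.9, 9.72 and 10.4% in WT and 10.2, 10.3 and 10.3% in Cul5 cKO for Trbv, and 9.92, 8.58 and 9.36% and 9.02, 7.68 and 8.66% for Trav. No sample was dominated by 1 segment.

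**Figure D3:**
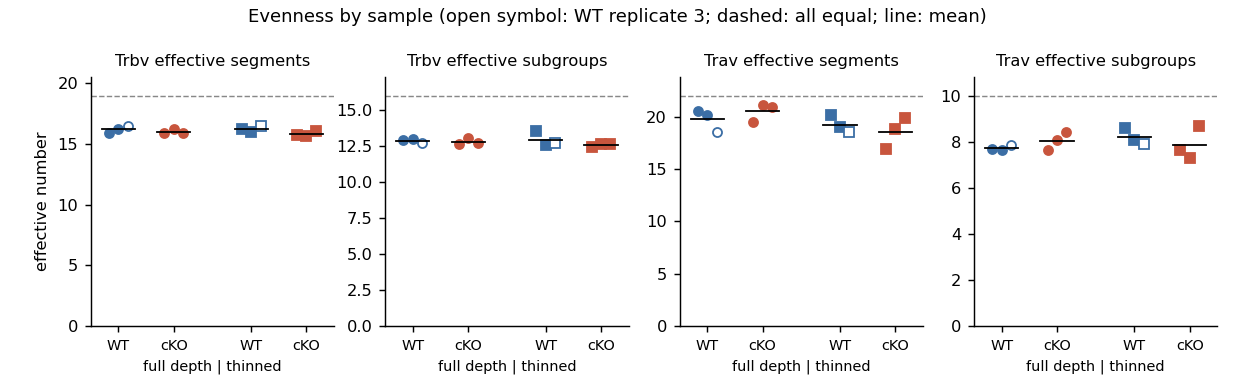
Effective number of segments and of subgroups for each chain, 1 point per sample with a line at the group mean, for the full libraries (circles) and for libraries thinned to the shallowest (squares). Open symbols are WT replicate 3, and the dashed line is the number if all were used equally. At full depth the Trbv values lie within 15.9 to 16.5 segments and the Trav values within 18.5 to 21.1 segments, with both genotypes at a like height.

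Samples of different genotype were about as far apart in usage as samples of the same genotype. The distance between a pair of samples was the total variation, the percentage of usage that would have to move between subgroups to make them equal. For Trbv it averaged 6.56% over the 9 pairs of different genotype (3.27 to 11.1%) and 6.39% over the 6 pairs of the same genotype (4.15 to 10.8%). The difference of 0.17 points had an exact permutation p of 1, and the smallest that this statistic allows is 0.2. The 5 Trbv pairs with WT replicate 3 had the 5 largest distances (8.45 to 11.1%), and the other 10 lay within 3.27 to 5.74%. Without that library the difference was -0.153 points. For Trav the averages were 10.7% (6.96 to 15.96%) and 11.7% (6.06 to 14.97%), a difference of -1.01 points (exact permutation p = 0.6), or -0.231 points without WT replicate 3. The Trav distances were larger than the Trbv distances on average in both kinds of pair, and the Trav members have fewer counts and more shared sequence.

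Position along the Trav locus was also compared, because Trav segments far from the Traj cluster are used in later rounds of rearrangement. The annotated Trav genes were split by position into distal, middle and near blocks of 42, 42 and 44 genes. The members were unevenly drawn from them, 3 from the distal, 5 from the middle and 14 from the near block. The distal block took 17.3, 15.4 and 10.4% of Trav TPM in WT and 16.7, 11.7 and 12.5% in Cul5 cKO, a difference of -0.73 points (exact permutation p = 0.9), or -2.70 points without WT replicate 3 (exact permutation p = 0.4). The middle block took 22.3, 17.1 and 22.5% and 22.3, 21.7 and 19.8%, and the near block 60.4, 67.5 and 67.1% and 61.002, 66.6 and 67.7%. The genotypes overlapped in all 3. The near block held all 14 members whose names have neither d nor n, while the 4 d and the 4 n members lay in the other blocks, so position and copy cannot be told apart here. Over all annotated Trav genes the difference in the distal share was 1.99 points (exact permutation p = 0.8), the opposite direction.

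The amount of Trbv RNA, in contrast to its composition, was lower in the Cul5 cKO samples in CPM and in TPM, although the test across all genes did not pass. Summed over the 19 members it was 121, 127 and 162 CPM in WT and 95.5, 105 and 91.5 CPM in Cul5 cKO. Every Cul5 cKO sample lay below every WT sample (log2 fold change -0.48, SE 0.12, adjusted p = 0.103, edgeR quasi-likelihood test, Benjamini-Hochberg adjusted). In summed TPM the values were 831, 913 and 800.0 in WT and 647, 713 and 598 in Cul5 cKO (exact permutation p = 0.1, the smallest possible). WT replicate 3 was the highest WT sample in CPM and the lowest in TPM, and without it the log2 fold change was -0.35 (adjusted p = 0.251). With DESeq2 in place of edgeR the Trbv total passed the threshold (log2 fold change -0.47, adjusted p = 0.00723). Summed Trav measured 26.7, 32.9 and 40.5 CPM in WT and 22.01, 29.4 and 29.9 CPM in Cul5 cKO, with overlapping groups (log2 fold change -0.27, SE 0.18, adjusted p = 0.419). Without WT replicate 3 the Trav log2 fold change was -0.14 (adjusted p = 0.748). In TPM it was 189.5, 239 and 201 in WT and 155, 205 and 201 in Cul5 cKO (exact permutation p = 0.6). The ratio of Trbv to Trav TPM was 4.38, 3.82 and 3.98 in WT and 4.16, 3.48 and 2.97 in Cul5 cKO (exact permutation p = 0.3), so a difference between the chains was not shown.

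**Figure D4:**
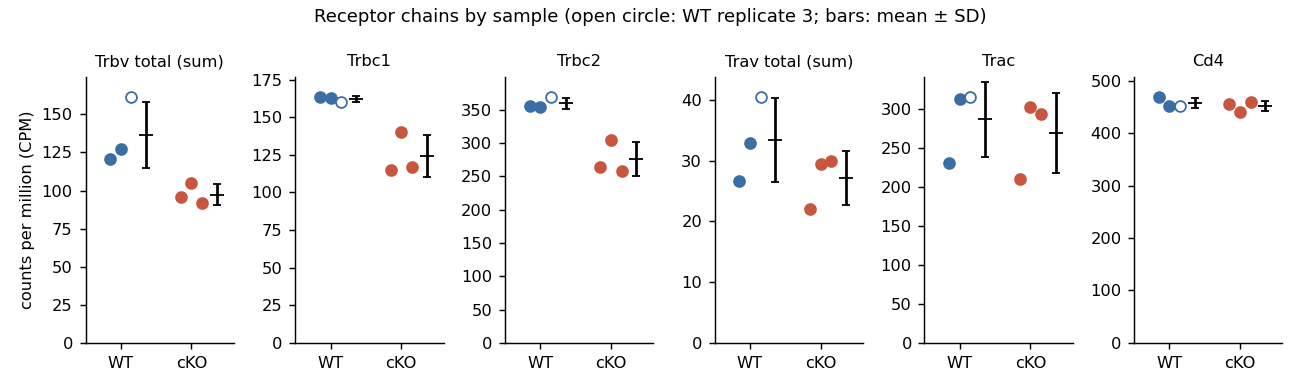
Level in each sample (CPM, linear axes from 0) of the summed Trbv members, Trbc1, Trbc2, the summed Trav members, Trac and Cd4, with the group mean and SD (n = 3) and WT replicate 3 as an open circle. The Cul5 cKO points lie below all WT points for Trbv (91.5 to 105 against 121 to 162 CPM), Trbc1 and Trbc2, and the groups overlap for Trav, Trac and Cd4.

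Taken one by one, none of the 41 segments passed an adjusted p of 0.05 (edgeR), where 1.03% of the 12925 genes tested did, and none did with DESeq2. All 41 passed the filter on low counts. All 19 Trbv segments had a log2 fold change below 0, against 51.2% of all genes, with a median of -0.48 (range -0.74 to -0.21) beside -0.01 over all genes. In 13 of the 19 every Cul5 cKO sample was below every WT sample, against 13.5% of all genes, and 7 had an unadjusted p under 0.05 in that direction, against 10.4%. No Trbv segment had a non-overlapping difference in the other direction. Because the segments share their libraries and the same cells, these are counts, not 19 independent observations. Of the 22 Trav segments, 16 had a log2 fold change below 0, with a median of -0.28 and a range of -0.81 to 0.25, 4 were lower without overlap and 1 had an unadjusted p under 0.05. Without WT replicate 3 the Trbv fold changes were still all below 0, with a median of -0.36, and 4 had an unadjusted p under 0.05. The Trav median was then -0.11, with 16 of 22 below 0 as before and a range of -0.83 to 0.74.

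**Figure D5:**
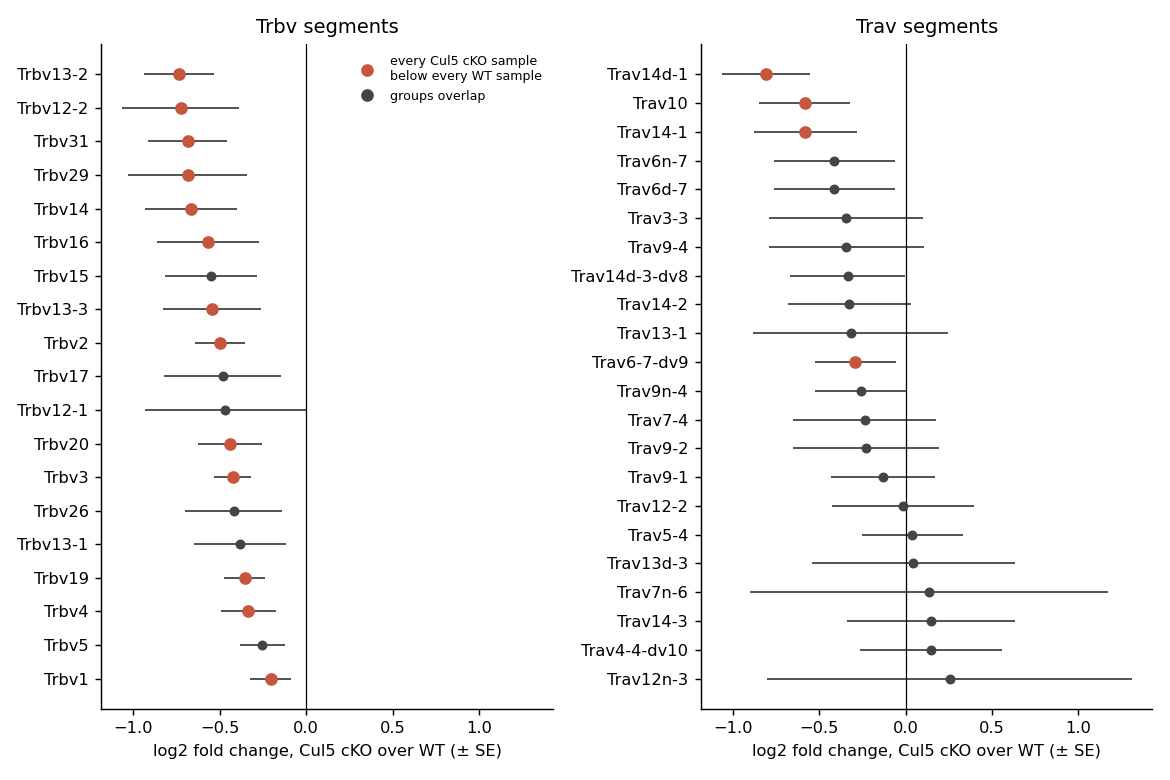
Log2 fold change of each segment, Cul5 cKO over WT, with a bar of 1 standard error to each side (edgeR, all 6 samples), Trbv and Trav in separate panels. Large red points mark segments in which every Cul5 cKO sample was below every WT sample (13 Trbv, 4 Trav), and all 19 Trbv points lie below 0, between -0.74 and -0.21.

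The 5 segments with the largest non-overlapping differences at a mean of at least 1 CPM were Trav14d-1, Trbv13-2, Trbv12-2, Trbv31 and Trbv29, all lower in Cul5 cKO. Trav14d-1, whose sequence is given above, measured 1.67, 2.08 and 1.77 CPM in WT and 1.09, 1.01 and 1.07 CPM in Cul5 cKO. Its adjusted p was 0.146 (log2 fold change -0.81, SE 0.26, edgeR), and its identical copy Trav14n-1 held the same value. Across the Trav14 subgroup, summed over its 9 annotated genes, the difference on the log2 scale was -0.42 (SE 0.19, adjusted p = 0.269, edgeR), with overlapping groups. Trbv13-2 measured 8.11, 8.39 and 12.9 CPM in WT and 5.43, 5.61 and 6.05 CPM in Cul5 cKO (log2 fold change -0.74, SE 0.21, adjusted p = 0.119), on 190, 194 and 51 and 125, 128 and 136 counts. Its TPM, 80.1, 85.3 and 78.7 in WT and 52.2, 54.5 and 55.7 in Cul5 cKO, showed the same separation without a high WT replicate 3. It passed the threshold with limma on log2(TPM + 1) (adjusted p = 0.0473, where limma called 0.209% of all genes) and not in the count test above. Without WT replicate 3 its log2 fold change was -0.53 (adjusted p = 0.300), and over the other settings its adjusted p ran from 0.0434 to 0.333.

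Trbv12-2 measured 1.96, 2.73 and 4.55 CPM in WT and 1.82, 1.84 and 1.56 CPM in Cul5 cKO (log2 fold change -0.73, SE 0.34, adjusted p = 0.272). Trbv31 measured 9.99, 11.7 and 17.5 CPM in WT and 7.296, 9.33 and 6.85 CPM in Cul5 cKO (log2 fold change -0.69, SE 0.23, adjusted p = 0.159). Trbv29, the least used subgroup, measured 1.37, 1.17 and 1.77 CPM in WT and 0.738, 0.657 and 1.16 CPM in Cul5 cKO (log2 fold change -0.69, SE 0.34, adjusted p = 0.302). In these 3 segments the WT samples spread widely, with WT replicate 3 highest in each. Without that library the log2 fold changes were -0.43 for Trbv12-2, -0.47 for Trbv31 and -0.57 for Trbv29 (adjusted p = 0.552, 0.364 and 0.538). Trbv3, the segment with the smallest adjusted p, was tight by comparison, with 16.4, 15.2 and 16.2 CPM in WT and 12.1, 12.6 and 10.8 CPM in Cul5 cKO (log2 fold change -0.42, SE 0.11, adjusted p = 0.109). In Trbv3 the samples of a genotype lay close together and apart from those of the other. Trbv19 did not overlap either, with 12.9, 13.7 and 15.9 CPM in WT and 11.03, 10.96 and 10.8 CPM in Cul5 cKO (log2 fold change -0.36, SE 0.12, adjusted p = 0.154). Its Cul5 cKO samples lay close together (SD 0.115 CPM), and its WT samples spread more (SD 1.58 CPM), with WT replicate 3 highest. Trbv1 had the difference nearest to 0 of all 19, with 10.1, 10.6 and 11.4 CPM in WT and 9.55, 9.29 and 8.71 CPM in Cul5 cKO (log2 fold change -0.21, SE 0.12, adjusted p = 0.366). Trbv5 was the one of the 8 leading Trbv segments whose groups overlapped in CPM, with 10.1, 10.3 and 8.86 CPM in WT and 7.95, 8.94 and 7.87 CPM in Cul5 cKO (log2 fold change -0.25, SE 0.13, adjusted p = 0.315). Trbv4 and Trbv20 were also lower without overlap (log2 fold changes -0.33 and -0.44, adjusted p = 0.277 and 0.232). Segments whose groups did not overlap were thus found among the most used and among the least used.

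Summed by subgroup, which removes the apportioning among copies of a subgroup, Trbv again lay below 0 throughout. All 16 Trbv subgroups had a log2 fold change below 0 and 11 were lower without overlap, against 13.6% of all features in that fit, and none passed the adjusted test (smallest adjusted p 0.108, edgeR). At an unadjusted p under 0.05 there were 7 Trbv subgroups, against 10.4%, and DESeq2 called none either. Of 16 Trav subgroups that could be tested with all annotated genes summed, 12 were below 0, 1 (Trav6) was lower without overlap and none had an unadjusted p under 0.05. The 10 Trav subgroups with a member had a median of -0.24.

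The constant genes of the β chain, 1 of which every full β transcript carries whatever its segment, were lower in Cul5 cKO by a like amount. Trbc2 measured 356, 354 and 369 CPM in WT and 264, 305 and 258 CPM in Cul5 cKO, without overlap (log2 fold change -0.38, SE 0.08, adjusted p = 0.0698). Trbc1 measured 164, 163 and 160.2 CPM in WT and 115, 140.1 and 117 CPM in Cul5 cKO (log2 fold change -0.39, SE 0.09, adjusted p = 0.0897). Both missed the threshold in edgeR, and WT replicate 3 did not stand apart from the other WT samples in either. The ratio of Trbv TPM to the TPM of Trbc1 and Trbc2 was 0.570, 0.597 and 0.558 in WT and 0.604, 0.575 and 0.587 in Cul5 cKO. The means were 0.575 ± 0.0202 (SD, n = 3) and 0.589 ± 0.0148 (SD, n = 3) (exact permutation p = 0.4), so relative to the constant genes the Trbv level overlapped between genotypes. Trac, the constant gene of the α chain, measured 231, 313 and 316 CPM in WT and 210.2, 303 and 294 CPM in Cul5 cKO (log2 fold change -0.09, SE 0.17, adjusted p = 0.798). Replicate 1 was the lowest of its group in both genotypes, for Trac as for the Trav total. The ratio of Trav to Trac TPM was 0.438, 0.390 and 0.344 in WT and 0.393, 0.363 and 0.376 in Cul5 cKO (exact permutation p = 0.8). In estimated counts, which are not corrected for effective length, it was 0.115, 0.105 and 0.128 in WT and 0.105, 0.0972 and 0.102 in Cul5 cKO, with every Cul5 cKO sample below every WT sample (exact permutation p = 0.1, the smallest possible). The Trbv ratio in counts was 0.232, 0.246 and 0.305 in WT and 0.252, 0.235 and 0.244 in Cul5 cKO, with overlap (exact permutation p = 0.8). WT replicate 3 was the highest sample in both ratios of counts and the lowest WT sample in both ratios of TPM.

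The other genes of the receptor were given by a list of 16, of which 14 could be tested. Of these, 11 had a log2 fold change below 0 (51.2% of all genes did), and 7 were lower without overlap (13.5% of all genes). None passed the adjusted test in edgeR, and 6 were lower at an unadjusted p under 0.05 (10.4% of all genes). With DESeq2, which called 5.36% of all genes, 5 of the 14 passed: Trbc1, Trbc2, Cd3e, Cd3g and Cd247 (adjusted p = 0.00200 to 0.0377). Cd247, which encodes the ζ signalling chain, measured 136, 135 and 144 CPM in WT and 109, 114 and 109.6 CPM in Cul5 cKO (log2 fold change -0.32, SE 0.06, adjusted p = 0.0668). Cd3e measured 145, 157 and 166 CPM and 131, 124 and 114 CPM (log2 fold change -0.34, SE 0.08, adjusted p = 0.0987). Cd3g and Cd3d, the remaining signalling subunits of the complex, had log2 fold changes of -0.35 (adjusted p = 0.112) and -0.13 (adjusted p = 0.271). In all 4 CD3 complex genes the groups did not overlap. The coreceptor gene Cd4 was close in both groups, with 469.5, 452 and 452 CPM in WT and 456, 440.1 and 459 CPM in Cul5 cKO (log2 fold change -0.02, SE 0.05, adjusted p = 0.863). The genes of the recombination machinery were low but counted in every library. Rag1, Rag2 and Dntt (the enzyme that adds bases at the joints) had means of at most 1.18 CPM in either group, with overlapping groups, and Ptcra, the α chain stand-in of immature thymocytes, was too low to test.

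Segments that mark unconventional T cells were at or near the floor. Trav11 and Trav11d, the α segments of invariant NKT cells, reached at most 0.675 and 0.299 CPM in any sample, and Trav1, that of MAIT cells, 0.506 CPM, where 3 counts correspond to 0.128 to 0.133 CPM in the deep libraries and 0.759 CPM in WT replicate 3. None of the 3 is a member and none could be tested. Genes of the γδ receptor were low but present. Trdc, the δ constant gene, measured 4.36, 6.23 and 6.07 CPM in WT and 5.43, 8.06 and 5.78 CPM in Cul5 cKO (log2 fold change 0.23, SE 0.23, adjusted p = 0.612). Tcrg-C2 measured 3.89, 2.81 and 4.05 and 1.69, 1.97 and 1.78 CPM, lower in Cul5 cKO without overlap but with an adjusted p of 0.110 (log2 fold change -0.96, SE 0.25, edgeR), and Tcrg-C4 overlapped (adjusted p = 0.332). Tcrg-C1, too low to test, stood at 3.59 CPM in Cul5 cKO replicate 2 and at most 0.555 CPM in the others. The 6 γδ markers summed to 12.9, 11.6 and 13.2 CPM in WT and 9.53, 16.6 and 9.5003 CPM in Cul5 cKO, with Trdv4 at 0 throughout. The 4 markers of NK and invariant NKT cells summed to at most 0.811 CPM, with Ncr1 at 0 throughout. The part of γδ T cells in the values of the dv segments was not tested.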

How the data were processed

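Poly-A RNA of 3 WT and 3 Cul5 cKO samples was read single-end for 50 bp. Reads were placed by the authors on Ensembl transcripts of GRCm38 (kallisto 0.46.2), and edgeR 3.34.0 gave their normalization. The deposited files hold, per transcript and sample, kallisto's estimated counts (not normalized) and TPM (scaled by the authors to effective length and to a fixed total). Another deposited file lists log2 CPM per gene, TMM-normalized by the authors. It also holds the authors' own fold changes and p-values as deposited, which were not used. Depth was 23111689 to 23454552 estimated counts in 5 libraries and 3944803 in WT replicate 3, which limits the precision of low segments most there.

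From these, 116640 of 119414 transcripts were matched to GENCODE genes, and estimated counts were summed per gene and rounded to whole numbers. WT and Cul5 cKO were compared with edgeR 4.0.16 (R 4.3.3; quasi-likelihood test, filterByExpr, TMM, Benjamini-Hochberg adjustment over all genes tested, threshold 0.05, biological coefficient of variation 16.1%), on segments, on subgroup sums over all annotated genes and on chain sums. The fit was tested on simulated data. Shares, effective numbers and distances were computed from TPM and compared by two-sided exact permutation tests over samples (20 assignments). Alternatives were DESeq2 1.42.0, limma 3.58.1 on log2(TPM + 1), log2(TPM + 0.1) and the authors' log2 CPM, other filters and scalings, counts in place of TPM, all annotated genes, thinning, and leaving out samples. The ratios to constant genes were given 2 alternatives chosen after seeing the data.

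Named are the 8 most and 3 least used subgroups of each chain with their leading segment, the 5 segments with the largest non-overlapping change at a mean of at least 1 CPM, Trav14d-1, segments of unconventional T cells, the other receptor genes and Cul5. Trbv13-1, Trbv13-3, Trav7n-6, Trav12n-3, the copies beside them and the remaining cell markers were named after their values were seen. The members and lists were chosen with earlier results of these data known. A marker gene of the lists is not reported here.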

Additional observations from a re-analysis of the deposited data

How the results depend on the processing

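Segments passing an adjusted p of 0.05 numbered 0 with edgeR and 0 in 13 of 16 other settings, and 1, Trbv13-2, with limma at either pseudocount on TPM (1 or 0.1) and with the replicate number as a block (adjusted p = 0.0473, 0.0434 and 0.0495). Subgroups passing numbered 0 in all 16. The Trbv total passed with DESeq2 (-0.47) and with the replicate block (-0.47, adjusted p = 0.0486), and over the 13 other settings ran from -0.55 to -0.33 with adjusted p of 0.00723 to 0.332; leaving out 1 sample gave -0.55 to -0.35 and no pass. The Trav total passed nowhere (-0.41 to -0.14). Of 302 Trbv fold changes in the other settings 302 were below 0. Calls over all genes, 133 here, were 693 with DESeq2, 848 with the block, and 2 without WT replicate 2 or 3. Same-numbered samples of both genotypes correlated in their deviations at 0.37, 0.206 and 0.0245, and Cul5 cKO replicate 3 correlated best with WT replicate 2 (0.201), so the numbers were not taken as pairs. Differences between genotypes in usage were small, and most measures turned in at least 1 setting. Over all annotated genes the Trav distance gave 0.42 and the Trav distal share 1.99. Thinned, the Trav effective segments gave -0.71, the Trav effective subgroups -0.33, the Trav distal share 3.26 and the Trbv distance -0.46. With replicates 2 and 3 alone the Trbv effective subgroups gave 0.022. By counts the ratio of Trbv to constant genes gave -0.017. The Trbv effective segments kept their direction in all 11 other settings (-0.466 to -0.0888), as did the ratio of Trav to constant genes in its 2 (-0.0295 and -0.0151). Leaving out 1 sample, the Trav distal share ran from -2.70 to 0.72, the Trbv distance from -1.01 to 1.98 and the Trbv effective subgroups from -0.22 to 0.0039. The causes were not tested. Depth limits the Trav segments most.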

Other observations

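The Trbj joining segments, short exons that sit between the variable and constant regions of the β chain, are not members and were looked at after the variable segments were seen. All 14 that were tested had a log2 fold change below 0, against 51.2% of all genes, with a median of -0.83 and a range of -1.91 to -0.36. In 10 the Cul5 cKO samples were lower without overlap (13.5% of all genes were). Of the 14, 0 passed the adjusted test (edgeR, smallest adjusted p = 0.0818), and 7 were lower at an unadjusted p under 0.05, against 10.4% of all genes. DESeq2 called 0, against 5.36% of all genes. Limma on log2(TPM + 1) called 1, against 0.209% of all genes, with 13 of 14 below 0. With replicates 2 and 3 alone 13 of 14 were also below 0. Their summed level was 22.4, 25.4 and 33.9 CPM in WT and 13.9, 16.04 and 14.4 CPM in Cul5 cKO. WT replicate 3 was again the highest, and without it all 14 were still below 0, with 4 at an unadjusted p under 0.05. None of the 60 annotated Traj segments had counts enough to be tested.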
